A study of Mus musculus with 23 samples.

Results

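The genes described here mark the vessel wall of the brain: 24 endothelial genes and 11 mural cell genes, listed by name as known markers of these cells. Each was looked up by its symbol in the deposited expression table of mouse hippocampus, which holds 13766 genes. All 24 endothelial genes and 10 of the 11 mural genes were found, so 34 of 35 listed genes were measured. Acta2, the smooth muscle actin, is not analysed here. Mural genes comprise 8 pericyte genes (Pdgfrb, Rgs5, Kcnj8, Abcc9, Vtn, Higd1b, Anpep, Notch3) and the smooth muscle genes Tagln and Myh11.

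Endothelial cells line every vessel and, in the brain, form the blood-brain barrier: tight junctions seal the gaps between them, and carriers and efflux pumps decide what crosses. Mural cells sit on the outside of that tube. Pericytes wrap capillaries and depend on platelet-derived growth factor released by the endothelium, while smooth muscle cells ring arterioles and set their diameter. In the hippocampus a dense capillary bed supplies neurons that have little energy reserve.

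The 23 hippocampi came from FCG mice of the C57Bl/6J strain, about 12 months old, with no treatment named in the labels, and each library carries its own animal number. In FCG mice Sry, the gene that starts testis formation, is missing from the Y chromosome and present as a transgene on an autosome, so gonads and sex chromosomes are inherited apart. The groups were XX mice with ovaries (XXF, n = 5), XX mice with testes (XXM, n = 6), XY mice with ovaries (XYF, n = 6) and XY mice with testes (XYM, n = 6). The XXM and XYM animals carry the Sry transgene and the XXF and XYF animals do not, so gonad and transgene cannot be told apart, and weaning cages were assigned by genital appearance, so cage type cannot be told apart from gonad either. The crossed design asks 3 questions: whether a vascular gene differs with XX or XY, with ovaries or testes, and whether one depends on the other.

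Library totals over the table ran from 10257751 to 36078221 estimated counts, and levels are given as CPM, counts relative to library size after scaling by the trimmed mean of M-values. Hippocampal identity was checked with 10 marker genes, all of them present in every library (Neurod6 between 194 and 281 CPM, Prox1 between 46.5 and 84.6 CPM). Xist lay between 936 and 1468 CPM in the 11 XX libraries and at or below 2.86 CPM in 11 of the 12 XY libraries, while XYF replicate 4 stood at 94.1 CPM and had Y-linked levels like the rest (Ddx3y at 63.6 CPM). Choroid plexus genes split the libraries: 7 had a choroid plexus score (mean log2 CPM of 9 genes) between 5.98 and 6.82, with Ttr at 1668 to 2927 CPM, and 16 had a score between 1.75 and 3.96, with Ttr at 19.1 to 152 CPM. The 7 were XXF replicate 1, XXM replicates 1, 3, 4 and 5, XYF replicate 5 and XYM replicate 1. For several results that move with this split, values without those libraries or with the score as a covariate are also given.

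Endothelial promoters are known to be bound by ETS factors such as Erg and Fli1, whose sites hold the core GGAA. The longer form GGAAGT was searched here, so a window without it can still hold the core. RefSeq promoter entries (GRCm38.p6) matched 22 of the 34 genes, and the 250 bases before each start were searched on both strands. GGAAGT was found in 8 of 16 endothelial windows (Flt1, Tie1, Slco1c1, Ly6c1, Kdr, Eng, Abcg2, Egfl7), in 1 of 6 mural windows (Anpep), and in 22.2% of the 27025 genes with a RefSeq promoter entry. The 5 stretches below show it in 4 endothelial receptors and in the carrier to which the results return, 5′ to 3′ on the gene's own strand, with the motif or its reverse complement ACTTCC in capitals.
Flt1, chr5:147726031-147726090, minus strand: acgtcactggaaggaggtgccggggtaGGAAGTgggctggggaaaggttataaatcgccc
Kdr, chr5:75978640-75978699, minus strand: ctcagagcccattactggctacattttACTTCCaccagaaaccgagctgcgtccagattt
Tie1, chr4:118489899-118489958, minus strand: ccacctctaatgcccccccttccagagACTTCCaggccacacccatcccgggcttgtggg
Eng, chr2:32646515-32646574, plus strand: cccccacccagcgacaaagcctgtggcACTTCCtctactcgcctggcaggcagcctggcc
Slco1c1, chr6:141524198-141524257, plus strand: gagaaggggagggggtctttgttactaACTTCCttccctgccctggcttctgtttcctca

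In Flt1 the motif lay on the gene's strand, 52 to 47 bases before the start, and in the other 4 it lay on the opposite strand, 53 to 48 bases before the start in Eng, 82 to 77 in Tie1, 129 to 124 in Slco1c1 and 217 to 212 in Kdr. The smooth muscle element known as the CArG box was in 0 of 16 endothelial and 0 of 6 mural windows and in 1.62% of the genes with an entry. The smooth muscle genes Tagln and Myh11 had no promoter entry and were not searched, so the mural count does not cover them. The interferon motif AAANNGAAA was in the windows of Slco1c1 and Rgs5 and in 10.8% of the genes with an entry. Ly6a had no entry and was not searched. These matches are letters in a window and were not tested as sites.

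Levels of different genes were compared per kilobase of annotated exon, over all 23 libraries. Bsg, the chaperone of monocarboxylate carriers, stood highest at 190.4 ± 18 CPM per kb (SD), and it is made by many cell types besides endothelium. Vtn at 27.8 ± 5.33 and the glucose carrier Slc2a1 at 26 ± 3.24 CPM per kb came next and did not differ beyond their SD. Cldn5 (17.8 ± 3.59), Ly6a (16.1 ± 4.37), Slco1c1 (15.7 ± 4.02) and Ly6c1 (15.2 ± 3.51 CPM per kb) formed a group whose neighbours overlapped. Rgs5 (8.78 ± 0.802) led the next group with Slco1a4 (8.28 ± 1.34), Mfsd2a (8.23 ± 1.01), Abcb1a (6.68 ± 0.618) and Egfl7 (6.51 ± 0.677 CPM per kb). The other 22 genes ran from Eng at 4.93 ± 0.743 to Anpep at 0.73 ± 0.19 CPM per kb, with no step between neighbours larger than their SD. Only 4 steps in the whole order exceeded the SDs: below Bsg, Slc2a1, Ly6c1 and Egfl7. Among the lowest were the receptors Tie1 at 2.13 ± 0.325 and Kdr at 2.07 ± 0.334 and the transcription factor Sox17 at 0.90 ± 0.224 CPM per kb, and the pump Abcg2 at 2.62 ± 0.323 CPM per kb stood just above them.

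**Figure D1:**
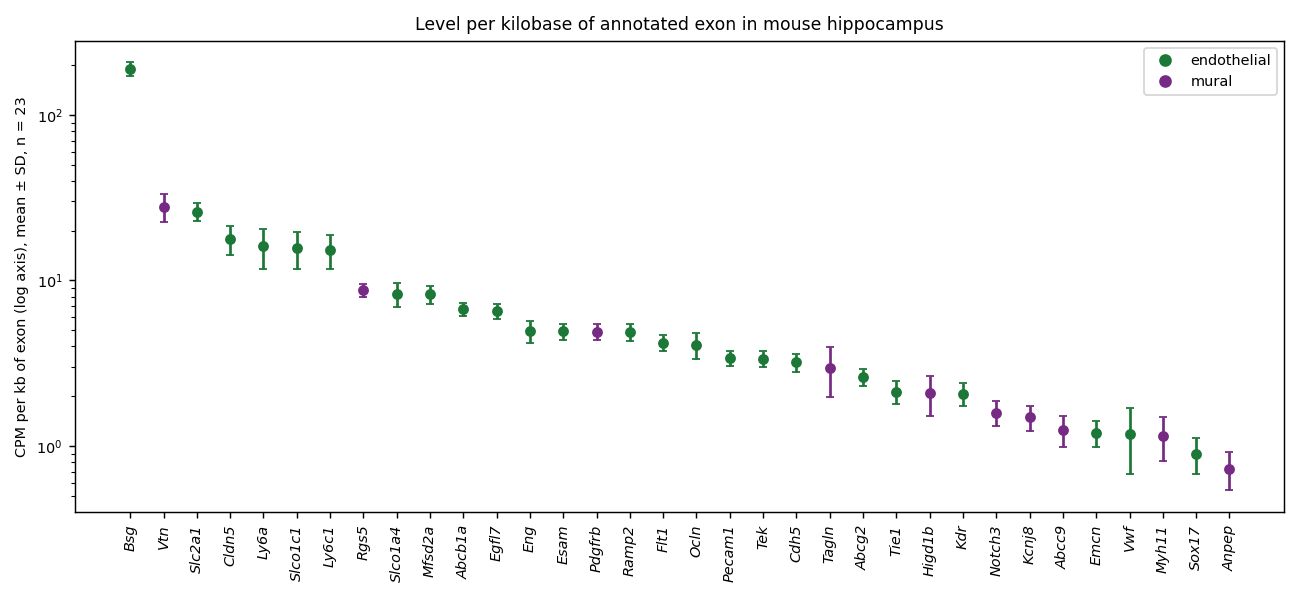
Level per kilobase of annotated exon (log axis, CPM per kb, mean ± SD over 23 libraries) for 24 endothelial (green) and 10 mural (purple) genes in falling order. Bsg stands alone at the top and Anpep is lowest.

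Levels of each class were also summed in each library. Endothelial genes summed to 967 ± 62.8 in XXF, 995 ± 85.6 in XXM, 1021 ± 83.1 in XYF and 915 ± 68.9 in XYM CPM (SD), and to 626 ± 44.4 in XXF, 633 ± 66.7 in XXM, 663 ± 56.7 in XYF and 596 ± 44.7 in XYM CPM without Bsg. Mural genes summed to 175 ± 24.2 in XXF, 168 ± 17.3 in XXM, 172 ± 19.3 in XYF and 165 ± 16.8 in XYM CPM. The ranges of all 4 groups overlapped in each sum, and XYM had the lowest mean in each. By single genes, XYM had the lowest mean in 10 of 24 endothelial genes and the highest in 0, XYF the highest in 11 of 24, and XXF the highest in 7 of 10 mural genes. These counts were not made over all genes, and genes of 1 library can move together. XXF replicate 1 held the highest Tagln and Anpep values of all libraries. Without it the mural median log2 fold change of XYM against XXF moved from -0.15 to -0.020. In bulk tissue, fewer vascular cells and less RNA per vascular cell cannot be told apart.

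**Figure D2:**
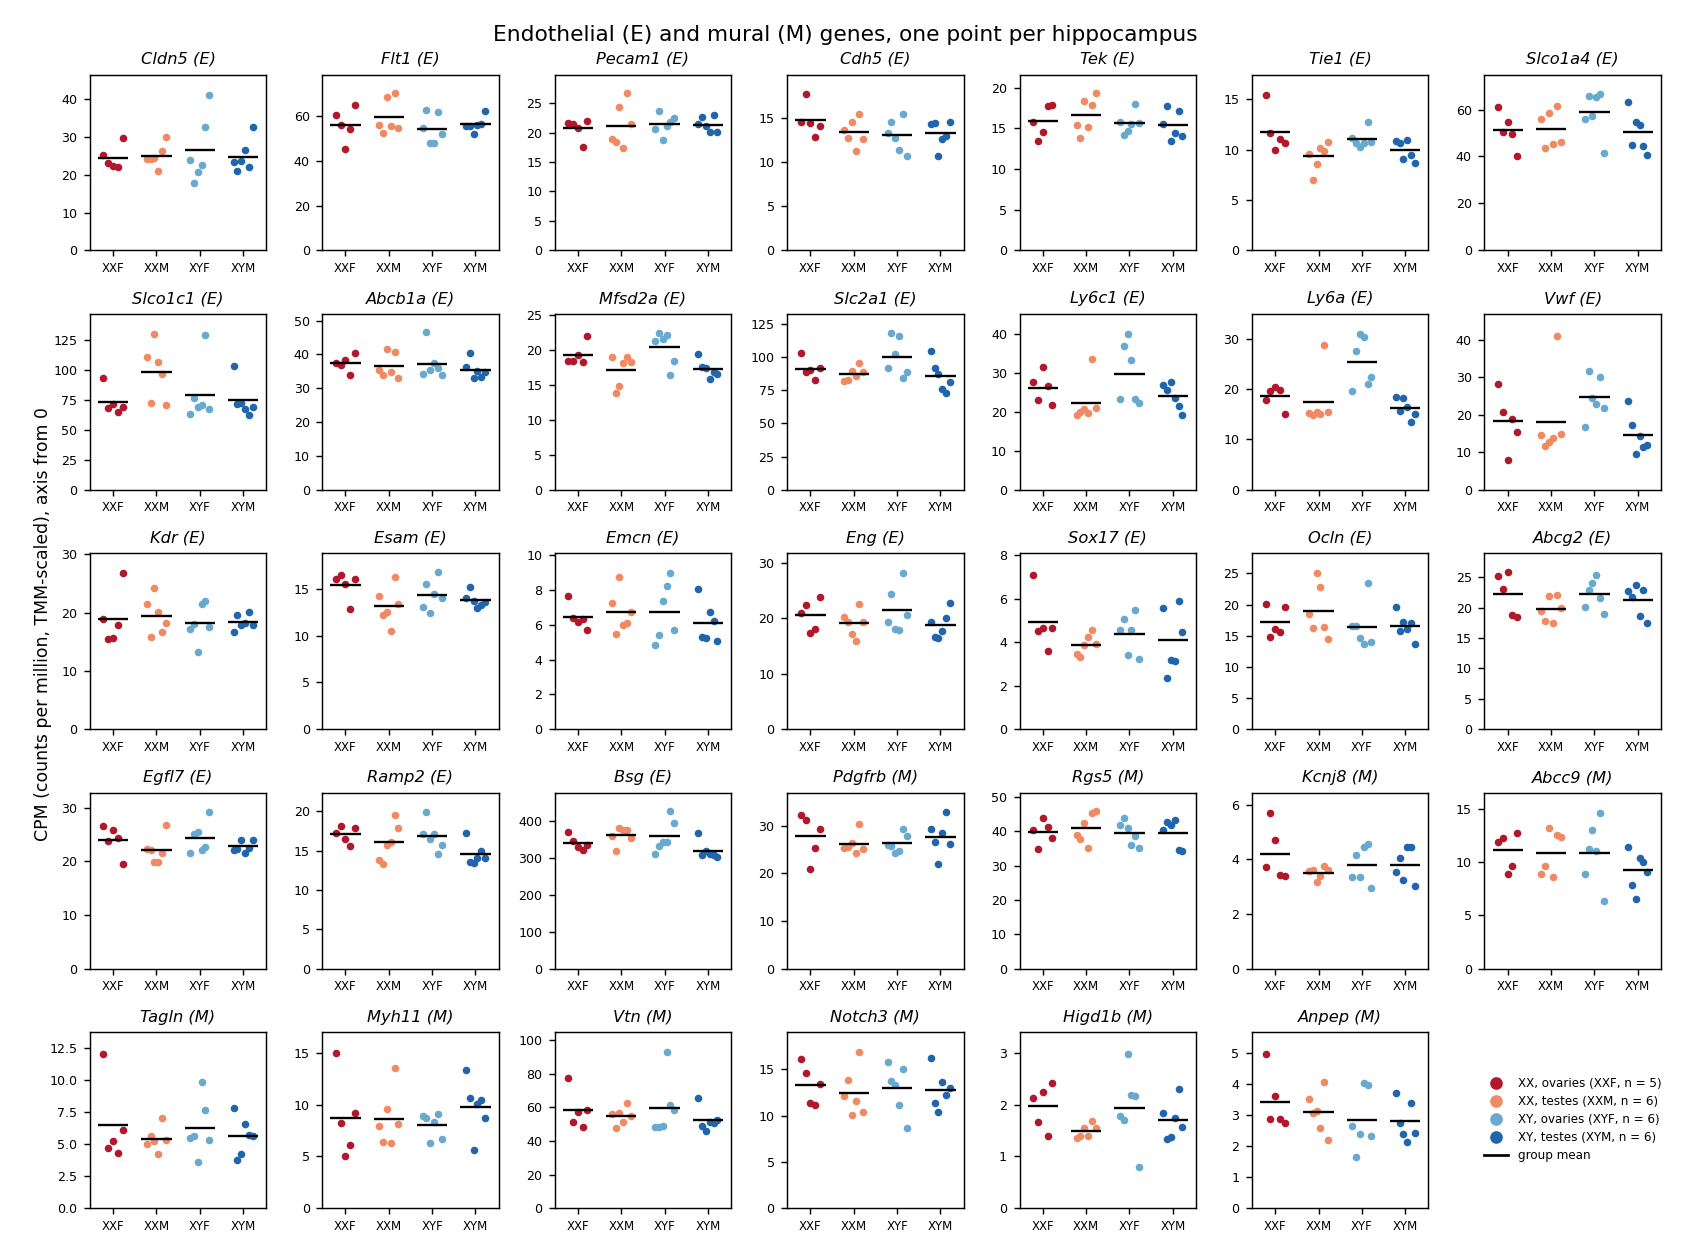
CPM of each gene in each hippocampus (one point per library, y axis from 0, group mean as a black line) in XXF (n = 5), XXM, XYF and XYM (n = 6 each); E marks endothelial and M mural genes. Single high points, such as XXM replicate 5 in Ly6a and Vwf, exceed most gaps between group means.

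Junction genes came first in the role order. Cldn5, the main claudin of brain endothelium, averaged 24.5 ± 3.19 in XXF, 25 ± 2.94 in XXM, 26.5 ± 8.74 in XYF and 24.9 ± 4.23 in XYM CPM (SD). Ocln, the tight junction protein occludin, averaged 17.2 ± 2.41 in XXF, 18.9 ± 4.16 in XXM, 16.4 ± 3.66 in XYF and 16.6 ± 1.96 in XYM CPM. Ranges of both overlapped between all groups, and the 2 high XYF libraries of Cldn5 were replicates 5 and 6, at 32.7 and 41.2 CPM. Esam, an adhesion molecule of tight junctions, averaged 15.4 ± 1.48 in XXF, 13.2 ± 1.99 in XXM, 14.4 ± 1.59 in XYF and 13.8 ± 0.809 in XYM CPM. Pecam1, the platelet-endothelial adhesion molecule, averaged 20.7 ± 1.82 in XXF, 21.2 ± 3.71 in XXM, 21.4 ± 1.69 in XYF and 21.4 ± 1.23 in XYM CPM, and Cdh5, the cadherin of endothelial adherens junctions, averaged 14.7 ± 1.81 in XXF, 13.4 ± 1.5 in XXM, 13 ± 1.81 in XYF and 13.2 ± 1.49 in XYM CPM. No junction gene had a group that lay apart from the others.

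Receptors of the vascular growth factors came next. Flt1, which binds vascular endothelial growth factor tightly and acts largely as a decoy, averaged 56.3 ± 7.43 in XXF, 59.6 ± 7.76 in XXM, 54.5 ± 6.56 in XYF and 56.4 ± 3.35 in XYM CPM, and Kdr, the main signalling receptor for that factor, averaged 18.9 ± 4.62 in XXF, 19.4 ± 3.18 in XXM, 18.2 ± 3.19 in XYF and 18.4 ± 1.24 in XYM CPM. Tek, the angiopoietin receptor, averaged 15.9 ± 1.97 in XXF, 16.7 ± 2.18 in XXM, 15.7 ± 1.33 in XYF and 15.4 ± 1.76 in XYM CPM. For these 3, the ranges of all groups overlapped. Tie1, the partner of Tek with no ligand of its own, averaged 11.8 ± 2.15 in XXF, 9.33 ± 1.34 in XXM, 11 ± 0.867 in XYF and 9.96 ± 0.995 in XYM CPM. Eng, a co-receptor for bone morphogenetic proteins, averaged 20.5 ± 2.83 in XXF, 19.1 ± 2.34 in XXM, 21.4 ± 4.1 in XYF and 18.8 ± 2.42 in XYM CPM, and Ramp2, which makes the calcitonin-like receptor respond to adrenomedullin, averaged 17.1 ± 1.04 in XXF, 16.1 ± 2.39 in XXM, 16.8 ± 1.81 in XYF and 14.5 ± 1.43 in XYM CPM. Tie1 and Ramp2 had their lowest group mean in mice with testes, XXM for Tie1 and XYM for Ramp2.

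Carriers and pumps of the barrier make up 7 members. Slc2a1, the glucose carrier, averaged 91.2 ± 7.59 in XXF, 87.3 ± 5.16 in XXM, 100.2 ± 14.4 in XYF and 85.6 ± 11.6 in XYM CPM, and Bsg averaged 341 ± 19 in XXF, 362 ± 22.7 in XXM, 359 ± 43.4 in XYF and 319 ± 25.1 in XYM CPM. Mfsd2a, which carries lysolipids with omega-3 fatty acids and restrains vesicle traffic, averaged 19.3 ± 1.54 in XXF, 17.2 ± 2.23 in XXM, 20.4 ± 2.4 in XYF and 17.3 ± 1.21 in XYM CPM. Slc2a1 and Mfsd2a both had their highest mean in XYF. Slco1a4, an organic anion carrier, averaged 51.3 ± 7.58 in XXF, 51.8 ± 7.74 in XXM, 58.8 ± 9.7 in XYF and 50.3 ± 8.47 in XYM CPM. Slco1c1, a thyroxine carrier known from brain capillaries and from choroid plexus epithelium, averaged 73.2 ± 11.4 in XXF, 97.8 ± 23.1 in XXM, 79 ± 24.7 in XYF and 74.4 ± 14.6 in XYM CPM. Its XXM mean was the highest, and XXM also holds 4 of the 7 libraries rich in choroid plexus. Abcb1a, the drug efflux pump P-glycoprotein, averaged 37.4 ± 2.41 in XXF, 36.6 ± 3.66 in XXM, 37.3 ± 4.72 in XYF and 35.4 ± 2.74 in XYM CPM, and Abcg2, the second efflux pump, averaged 22.3 ± 3.48 in XXF, 19.8 ± 1.94 in XXM, 22.2 ± 2.42 in XYF and 21.2 ± 2.58 in XYM CPM. The highest of 23 libraries exceeded the lowest 1.41 times in Abcb1a and 1.48 times in Abcg2. Slco1a4 and Abcb1a have close copies (Slco1a5, Abcb1b) with which reads could be shared, so their levels are uncertain to that extent.

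Surface, secreted and transcription factor genes included the most variable member. Vwf, the clotting glycoprotein stored in endothelial granules, averaged 18.3 ± 7.36 in XXF, 18.1 ± 11.3 in XXM, 24.7 ± 5.53 in XYF and 14.7 ± 5.18 in XYM CPM and ranged 5.09 times, from 8.06 CPM in XXF replicate 3 to 41 CPM in XXM replicate 5. Without that XXM library the other 5 ran from 11.7 to 14.8 CPM. Ly6a and Ly6c1, membrane-anchored surface proteins of the same family, are described with the gonad comparison. Egfl7, a secreted factor that hosts the microRNA miR-126, averaged 24 ± 2.74 in XXF, 22.1 ± 2.55 in XXM, 24.4 ± 2.9 in XYF and 22.8 ± 0.991 in XYM CPM. Emcn, a sialomucin of capillaries and veins, averaged 6.45 ± 0.719 in XXF, 6.71 ± 1.18 in XXM, 6.75 ± 1.69 in XYF and 6.11 ± 1.16 in XYM CPM, and Sox17, an arterial transcription factor, averaged 4.91 ± 1.31 in XXF, 3.89 ± 0.47 in XXM, 4.38 ± 0.891 in XYF and 4.11 ± 1.42 in XYM CPM. Ranges of all groups overlapped in 5 of these 6 genes, and the exception was Ly6a, in which XYF and XYM were separated. The share of all genes with such a separation was not counted.

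Pericyte genes ranged from steady to scattered. Rgs5, a regulator of G-protein signals, averaged 39.7 ± 3.38 in XXF, 41 ± 4.37 in XXM, 39.4 ± 3.46 in XYF and 39.6 ± 4.06 in XYM CPM and ranged only 1.34 times over the 23 libraries. Pdgfrb, the receptor through which pericytes are recruited, averaged 27.8 ± 4.65 in XXF, 26.2 ± 2.16 in XXM, 26.3 ± 1.94 in XYF and 27.6 ± 3.67 in XYM CPM. Vtn, the adhesive glycoprotein vitronectin, averaged 58.6 ± 11.5 in XXF, 54.9 ± 5.18 in XXM, 59.9 ± 17.2 in XYF and 52.5 ± 6.84 in XYM CPM, with its highest value, 92.9 CPM, in XYF replicate 4, the library with the Xist signal. Kcnj8 and Abcc9, the subunits of the vascular ATP-sensitive potassium channel, averaged 4.19 ± 1.0 in XXF, 3.51 ± 0.204 in XXM, 3.8 ± 0.671 in XYF and 3.79 ± 0.607 in XYM CPM and 11.1 ± 1.7 in XXF, 10.9 ± 2.06 in XXM, 10.8 ± 2.93 in XYF and 9.22 ± 1.79 in XYM CPM. Notch3, the Notch receptor of mural cells, averaged 13.4 ± 2.1 in XXF, 12.5 ± 2.54 in XXM, 12.9 ± 2.65 in XYF and 12.8 ± 2.05 in XYM CPM, and Anpep, a membrane peptidase also made by fibroblasts, averaged 3.41 ± 0.942 in XXF, 3.09 ± 0.661 in XXM, 2.83 ± 0.961 in XYF and 2.8 ± 0.63 in XYM CPM. Higd1b, a mitochondrial protein enriched in pericytes, rested on counts of 17 to 55 a library and averaged 1.97 ± 0.424 in XXF, 1.48 ± 0.125 in XXM, 1.94 ± 0.717 in XYF and 1.69 ± 0.354 in XYM CPM. For these 8 genes, too, every group overlapped every other.

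Of the smooth muscle genes, Tagln, an actin-binding protein of contractile cells, averaged 6.48 ± 3.18 in XXF, 5.41 ± 0.929 in XXM, 6.24 ± 2.19 in XYF and 5.6 ± 1.48 in XYM CPM, and Myh11, their myosin heavy chain, averaged 8.68 ± 3.87 in XXF, 8.62 ± 2.68 in XXM, 7.98 ± 1.22 in XYF and 9.79 ± 2.57 in XYM CPM. XXF replicate 1 held the highest value of both, 12 and 14.9 CPM. The spread between replicates was wider in mural than in endothelial genes: edgeR's biological coefficient of variation had a median of 0.184 over 10 mural genes, 0.124 over 24 endothelial genes and 0.103 over all genes. It was highest for Vwf (0.339) and Tagln (0.274) and lowest for Bsg (0.0853) and Abcb1a (0.0917), with Rgs5 (0.0935) the lowest of the mural genes. Mural genes also stood lower, at a mean log2 CPM of 3.29 against 4.57 for endothelial genes over all libraries. Spread was not compared at equal level.

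Sex chromosomes made no difference that passed the test in any of the 34 vascular genes. Calls rest on quasi-likelihood tests in edgeR at a p under 0.05 after Benjamini-Hochberg adjustment across the whole table. For XY against XX, 0 of 34 members were called, against 0.283% of all genes (39 of 13766). At shares this low, here and in the comparisons below, 0 calls among 34 members say little by themselves. At an unadjusted p under 0.05 the count was also 0 of 34 (2 without XXM replicate 5 and 2 without XYF replicate 5), against 6.78% of all genes, and DESeq2 and 2 forms of limma called 0 as well. The median log2 fold change was -0.0057 over endothelial and -0.010 over mural genes, and 19 of 34 were below 0, against 49.1% of all genes. Over the alternatives the endothelial median ran from -0.028 to 0.047 and the mural median from -0.040 to 0.047. All 34 intervals lay within 1.5-fold in either direction, so a larger change was outside the 95% interval of each gene.

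The smallest p belonged to Ly6a and Ocln among endothelial genes and to Anpep and Abcc9 among mural genes. Ly6a had a log2 fold change of 0.17 ± 0.11 (SE, 95% interval -0.051 to 0.39, adjusted p = 0.839), with 10 of 12 XY libraries above the XX median. Ocln had -0.13 ± 0.10 (SE, 95% interval -0.33 to 0.072, adjusted p = 0.888), with 6 of 12 XY libraries below the XX median. Among mural genes Anpep had -0.22 ± 0.15 (SE, 95% interval -0.53 to 0.089, adjusted p = 0.864), with 8 of 12 XY libraries below, and Abcc9 had -0.13 ± 0.12 (SE, 95% interval -0.38 to 0.12, adjusted p = 0.921), with 10 of 12 below. Each range of XX values overlapped that of XY values, and 0 of 34 members had separated ranges, against 14 of 13766 genes. At a share this low, 0 of 34 members says little by itself. Over the alternatives Ocln ran from -0.19 to -0.029, Abcc9 from -0.21 to -0.023, Anpep from -0.28 to -0.10 and Ly6a from 0.13 to 0.27.

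In mice with testes, most of the 34 vascular genes had a log2 fold change below 0, but none passed the test. In the comparison of testes with ovaries 0 of 34 members were called, against 0.160% of all genes (22 of 13766), and 26 of 34 were below 0 (18 of 24 endothelial, 8 of 10 mural), against 51.0% of all genes. The medians were -0.11 for endothelial and -0.10 for mural genes. The mural median was -0.017 without XXF replicate 1, -0.049 without XYF replicate 5, -0.064 without XYF replicate 4 and -0.026 with voom. At an unadjusted p under 0.05 stood 6 of 34, all endothelial and all below 0, against 13.6% of all genes. DESeq2's Wald test also called 0, with 6 at an unadjusted p under 0.05, and limma's voom with quality weights called 0, with 8. Once choroid plexus score was a covariate, 0 were called and 12 stood at an unadjusted p under 0.05, with a mural median of -0.14. In the 16 libraries low in choroid plexus, 0 were called and 7 stood at an unadjusted p under 0.05, with a mural median of -0.066. Intervals lay within 1.5-fold for 31 of 34, the exceptions being Ly6a, Vwf and Higd1b, and within 2-fold for all 34. Genes of 1 library can move together, so the 34 directions are not independent. In the wider lists described below, 23 of 40 other endothelial and 12 of 24 other mural genes were below 0. So were 16 of 29 signalling and 3 of 13 basement membrane genes.

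Ly6a, the stem cell antigen Sca-1 that brain endothelium carries and interferon is known to induce, came nearest to the threshold (gene 110454, chromosome 15, 74994877 to 74998031, minus strand, mm10). Its libraries ran from 15 to 20.5 (median 19.7) in XXF, 14.8 to 28.8 (median 15.3) in XXM, 19.5 to 30.9 (median 25) in XYF and 13.5 to 18.4 (median 16.1) in XYM CPM. Means were 18.6 ± 2.2 in XXF, 17.4 ± 5.56 in XXM, 25.3 ± 4.95 in XYF and 16.2 ± 1.89 in XYM CPM. XYF was the high group, and every XYF library lay above every XYM library, a separation whose share over all genes was not counted. Within XXM 1 library, replicate 5 at 28.8 CPM, stood far above the other 5 (14.8 to 15.4 CPM). The log2 fold change was -0.37 ± 0.11 (SE, 95% interval -0.59 to -0.15, adjusted p = 0.162), with 11 of 12 testis libraries below the ovary median. Without XXM replicate 5 it was -0.46 with an adjusted p of 0.00612, which is a call. In the 16 libraries low in choroid plexus it was -0.52 with an adjusted p of 0.0542. Over all 30 alternatives the adjusted p ran from 0.00612 to 0.284, and leaving out XXM replicate 5 gave the only call.

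Ly6c1 (gene 17067, chromosome 15, 75044018 to 75048837, minus strand), chosen after its values were seen, lies on the same chromosome and ran from 21.7 to 31.6 (median 26.7) in XXF, 19.2 to 33.5 (median 20.2) in XXM, 22.2 to 39.9 (median 28.3) in XYF and 19.2 to 27.7 (median 24.5) in XYM CPM. XXM replicate 5 was again the high library of its group, at 33.5 CPM. The log2 fold change was -0.27 ± 0.11 (SE, 95% interval -0.50 to -0.045, adjusted p = 0.287), with 9 of 12 testis libraries below the ovary median, over alternatives from -0.38 to -0.22. The value -0.38 came from the 16 libraries low in choroid plexus, with an adjusted p of 0.68. Both genes belong to a cluster of close copies, so reads could be shared between them and the split of counts is uncertain.

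Interferon genes and blood genes were also highest in XYF. Of 12 interferon response genes, 7 were called lower with testes and 9 higher with XY, against 0 in every vascular list. Of all genes, 0.160% and 0.283% were called in these comparisons, in either direction. Ifit1, an antiviral RNA-binding protein, had a log2 fold change of -1.16 ± 0.17 (SE, adjusted p = 0.00158) for the gonad and 1.03 ± 0.17 (SE, adjusted p = 0.0017) for the sex chromosomes. Gbp3, an interferon-induced guanylate-binding protein, had -0.67 ± 0.092 (SE, adjusted p = 0.000979) and 0.78 ± 0.093 (SE, adjusted p = 6.67e-06). Summed interferon levels were 106 ± 6.99 in XXF, 106 ± 10.6 in XXM, 197 ± 34.3 in XYF and 115 ± 27.8 in XYM CPM, so the XYF group stood high, as in Ly6a. Also called lower with testes were the ubiquitin-like Isg15 at -0.86 ± 0.14 (SE, adjusted p = 0.00476) and Ifit3 at -0.78 ± 0.13 (SE, adjusted p = 0.00476). Also called higher with XY were Ifit3 at 1.06 ± 0.13 (SE, adjusted p = 1.74e-05), Oasl2 at 1.18 ± 0.17 (SE, adjusted p = 0.000179) and Irf7 at 1.09 ± 0.20 (SE, adjusted p = 0.00631). Without the 7 libraries rich in choroid plexus the Irf7 call was lost, at 0.88 with an adjusted p of 0.327 by edgeR.

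Blood genes (4 of 8 listed were found, 3 globins and Alas2) summed to 207 ± 62.4 in XXF, 172 ± 29.8 in XXM, 347 ± 118 in XYF and 158 ± 56.9 in XYM CPM. All 4 had a gonad log2 fold change below 0, with a smallest adjusted p of 0.0752, and 0 were called. XXM replicate 5, high in Ly6a, Ly6c1 and Vwf, had 106 CPM of interferon genes and 152 CPM of blood genes, inside the ranges of its group. What part interferon or retained blood has in the Ly6a values was not tested.

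**Figure D3:**
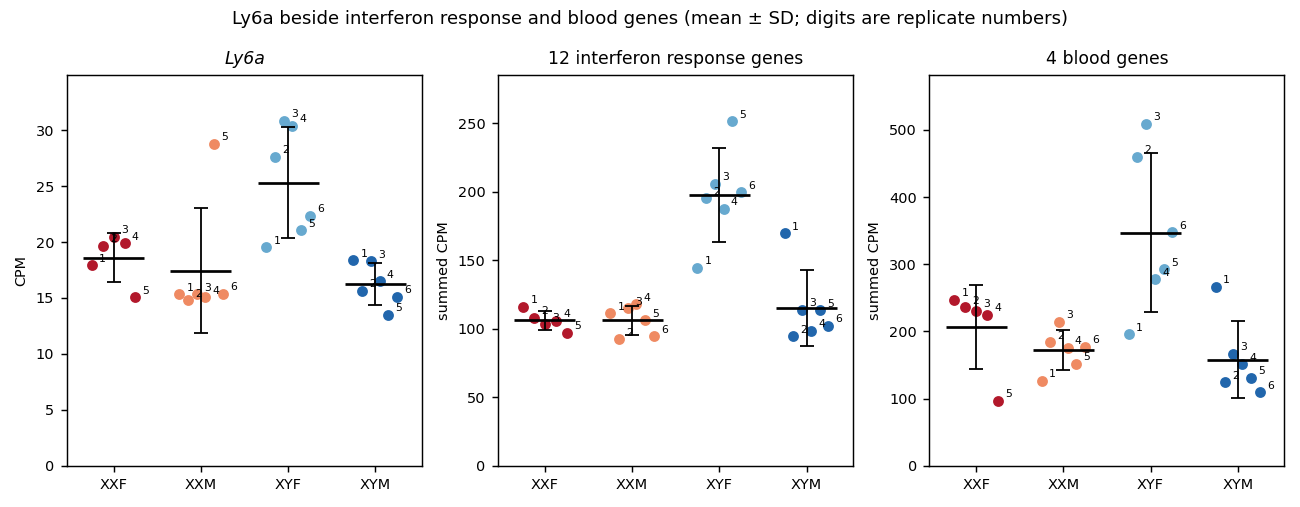
Ly6a (CPM), the summed level of 12 interferon response genes and that of 4 blood genes (summed CPM) in each library, with group mean ± SD (black) and replicate numbers beside the points, XXF n = 5 and the others n = 6. XYF is the highest group mean in all panels, and XXM replicate 5 is high for its group in the Ly6a panel only.

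The remaining genes at an unadjusted p under 0.05 were Mfsd2a, Tie1, Slc2a1 and Ramp2. Mfsd2a (gene 76574, chromosome 4, 122946851 to 122961188, minus strand) ran from 18.3 to 22 (median 18.5) in XXF, 13.9 to 19 (median 18.2) in XXM, 16.5 to 22.5 (median 21.4) in XYF and 15.9 to 19.5 (median 17.2) in XYM CPM. Its log2 fold change was -0.20 ± 0.064 (SE, 95% interval -0.33 to -0.068, adjusted p = 0.2), with 11 of 12 testis libraries below the ovary median and alternatives from -0.31 to -0.17. The value -0.31 came from the 16 libraries low in choroid plexus. Tie1, chosen after its values were seen, as were the next 2 genes, ran from 7.02 to 11 CPM with testes and 9.98 to 15.5 CPM with ovaries. Its log2 fold change was -0.25 ± 0.080 (SE, 95% interval -0.41 to -0.083, adjusted p = 0.202). In the 16 libraries low in choroid plexus its adjusted p was 0.912. Slc2a1 had -0.14 ± 0.062 (SE, 95% interval -0.27 to -0.016, adjusted p = 0.318), with 9 of 12 testis libraries below, and Ramp2 had -0.15 ± 0.067 (SE, 95% interval -0.29 to -0.010, adjusted p = 0.336), with 9 of 12 below. In the 16 libraries low in choroid plexus, Slc2a1 had -0.19 (adjusted p = 0.745) and Ramp2 had -0.22 (adjusted p = 0.763). Ramp2 shares exon sequence with Vps25 on the same strand, and Slc2a1 overlaps an antisense gene, so counts of both are uncertain to that extent. Among the members, 9 of 34 have exons that overlap another gene.

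Mural genes nearest to the threshold were Higd1b and Vtn. Higd1b ran from 1.4 to 2.41 (median 2.13) in XXF, 1.35 to 1.68 (median 1.47) in XXM, 0.804 to 2.98 (median 1.98) in XYF and 1.34 to 2.29 (median 1.66) in XYM CPM and had a log2 fold change of -0.28 ± 0.16 (SE, 95% interval -0.60 to 0.047, adjusted p = 0.44), with 11 of 12 testis libraries below the ovary median. Vtn ran from 48.1 to 77.8 (median 57) in XXF, 47.6 to 62.8 (median 55.4) in XXM, 48.3 to 92.9 (median 53.9) in XYF and 46 to 65.7 (median 50.9) in XYM CPM and had -0.14 ± 0.10 (SE, 95% interval -0.34 to 0.060, adjusted p = 0.535), with 10 of 12 below. Over the alternatives Higd1b ran from -0.37 to -0.15 and Vtn from -0.21 to -0.035, the value nearest 0 in both coming from voom with quality weights. Myh11 and Rgs5 were the mural genes above 0, at 0.14 and 0.019.

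**Figure D4:**
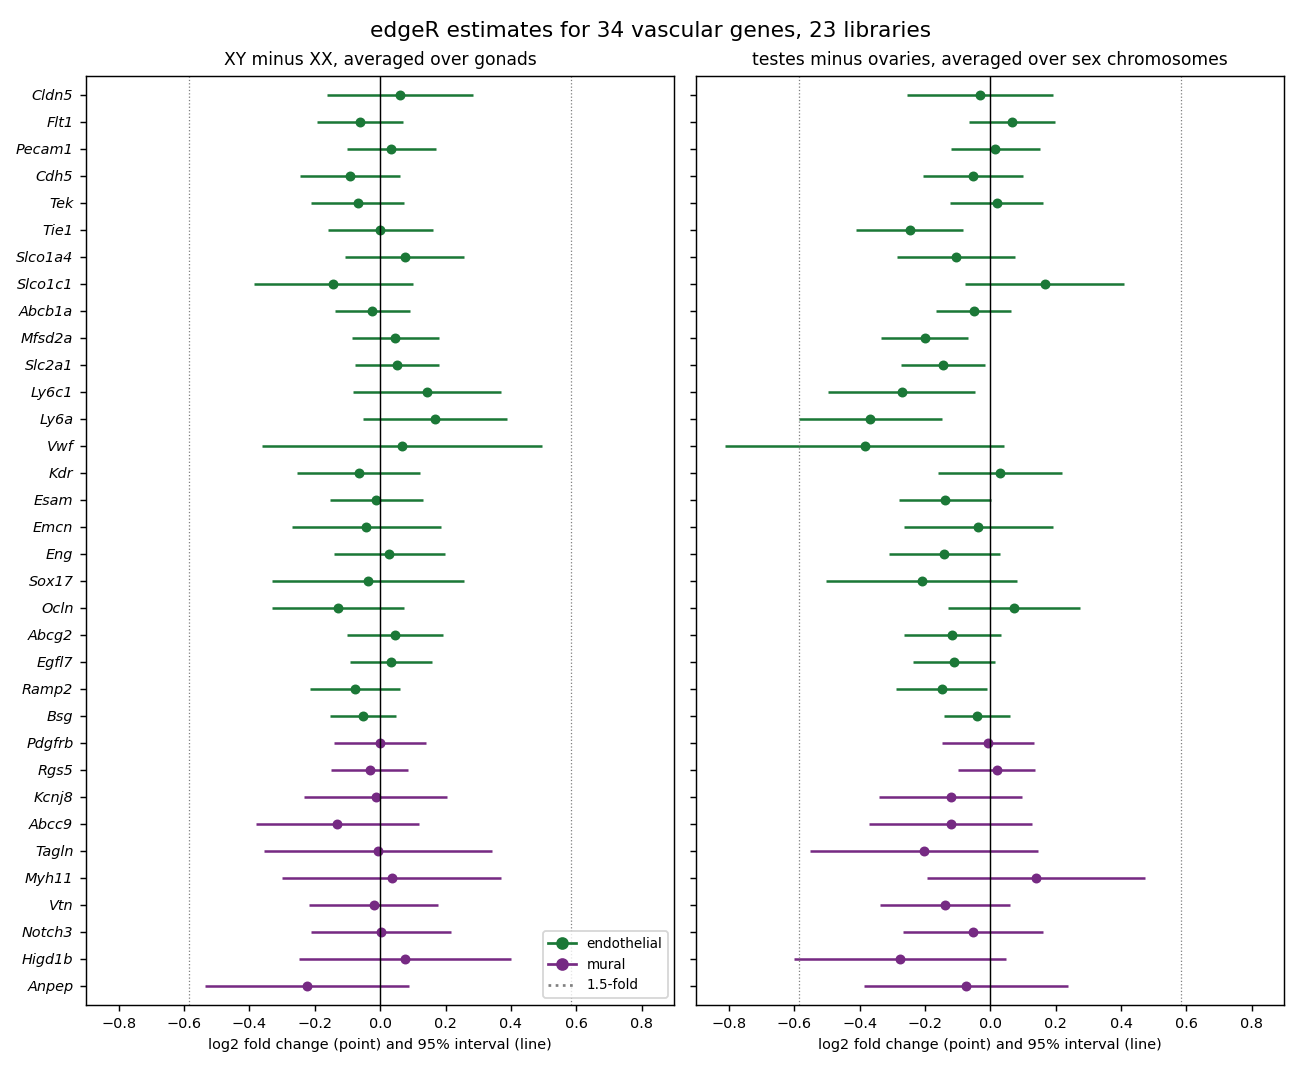
Log2 fold change (point) and 95% interval (line) of each gene for XY minus XX (left) and testes minus ovaries (right), from edgeR on 23 libraries; green is endothelial, purple mural, and dotted lines mark 1.5-fold. In the right panel 26 of 34 points lie below 0, and 6 intervals exclude 0 before adjustment.

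Whether the gonad difference depended on the sex chromosomes was asked with the interaction term. It called 0 of 34 members and 0 of 13766 genes (0% of all genes), with 3 members at an unadjusted p under 0.05, against 3.23% of all genes. Once choroid plexus score was a covariate the latter count was 1, and in the 16 libraries low in choroid plexus it was 0. Leaving out 1 library gave 2 to 4. Bsg had an interaction of -0.25 ± 0.10 (SE, 95% interval -0.45 to -0.052, adjusted p = 0.999) and Ly6a of -0.53 ± 0.21 (SE, 95% interval -0.97 to -0.093, adjusted p = 0.999) on the log2 scale. Without XXM replicate 5, the library far above its group, the Ly6a interaction was -0.34. Bsg ran from 321 to 371 (median 335) in XXF, 321 to 381 (median 368) in XXM, 311 to 427 (median 344) in XYF and 302 to 369 (median 309) in XYM CPM, so its mean was higher with testes in XX and lower with testes in XY. Slco1c1, the third, chosen after its values were seen, had -0.50 ± 0.24 (SE, 95% interval -0.99 to -0.012, adjusted p = 0.999). XXM held 4 of the 7 libraries rich in choroid plexus, and in the 16 other libraries the Slco1c1 interaction was -0.060. In mural genes the smallest p belonged to Pdgfrb at 0.15 ± 0.14 (SE, 95% interval -0.13 to 0.43, adjusted p = 0.999) and Kcnj8 at 0.23 ± 0.21 (SE, 95% interval -0.20 to 0.67, adjusted p = 0.999). The medians were -0.077 over endothelial and 0.14 over mural genes. Without XXF replicate 1 the mural median was -0.0038, and without XYM replicate 1 it was 0.039. It was 0.083 without XYF replicate 6, 0.087 with voom and 0.084 in the 16 libraries. The endothelial median was -0.028 with the covariate and -0.021 in the 16 libraries. It was -0.13 without XXF replicate 5, -0.040 without XYF replicate 2, -0.049 without XXM replicate 5 and -0.050 without XXF replicate 2 or XYF replicate 5.

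XYM against XXF sets the usual male combination beside the usual female one and uses libraries of both earlier comparisons. It called 0 of 34 members, against 0.131% of all genes (18 of 13766), with 2 at an unadjusted p under 0.05, against 10.1% of all genes. That count was 0 without XXF replicate 2 and 0 without XYM replicate 3, and 1 without XXF replicate 5 or XYM replicate 2, 5 or 6. Ramp2 ran from 13.4 to 17.2 CPM in XYM and 15.6 to 18.2 CPM in XXF, a log2 fold change of -0.23 ± 0.10 (SE, 95% interval -0.43 to -0.025, adjusted p = 0.426). All 6 XYM libraries lay below the XXF median, yet the ranges overlapped. Tie1 had -0.25 ± 0.12 (SE, 95% interval -0.48 to -0.0097, adjusted p = 0.465), with 6 of 6 XYM libraries below the XXF median. Without XXF replicate 1, which held the highest Tie1 value of 15.5 CPM, the Tie1 value was -0.12. Among mural genes Abcc9 had -0.25 ± 0.18 (SE, 95% interval -0.61 to 0.11, adjusted p = 0.68) and Anpep -0.30 ± 0.22 (SE, 95% interval -0.75 to 0.15, adjusted p = 0.703), and without XXF replicate 1 the Anpep value was -0.11.

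Slco1c1 followed the choroid plexus genes. In the 7 libraries with a high choroid plexus score it ran from 93.2 to 129.7 (median 107) CPM, and in the other 16 from 62.5 to 76.2 (median 69) CPM, with no overlap. The ratio of medians was 1.55. Slco1c1 (gene 58807, chromosome 6, 141524386 to 141570177, plus strand) was the only member of 34 with separated ranges, against 0.908% of all genes (125 of 13766) that were higher without overlap. This is a description with no test, since the score and the gene come from the same libraries.

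Other vascular genes overlapped between the 7 and the 16 libraries. Ocln ran from 16.3 to 25.1 (median 20.1) CPM against 13.6 to 19.6 (median 15.9) CPM, a ratio of medians of 1.26. Bsg ran from 359 to 427 (median 377) CPM against 302 to 394 (median 326) CPM, a ratio of 1.16. Vwf (1.48), Anpep (1.38), Tagln (1.31) and Emcn (1.29) had higher ratios of medians than Bsg. Cldn5 had a ratio of 1.05, and Rgs5 of 0.979. The median ratio was 1.05 over 24 endothelial genes, of which 20 lay above 1, and 1.17 over 10 mural genes, of which 7 did, against 0.996 over all genes. Summed fibroblast and meninges markers, all 15 found, were also higher there, at 453 to 594 CPM against 241 to 382 CPM in the other 16, while the score of these markers, their mean log2 CPM, overlapped, at 3.70 to 4.57 against 3.09 to 4.08. The part of choroid plexus or meningeal tissue in these values was not tested.

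**Figure D5:**
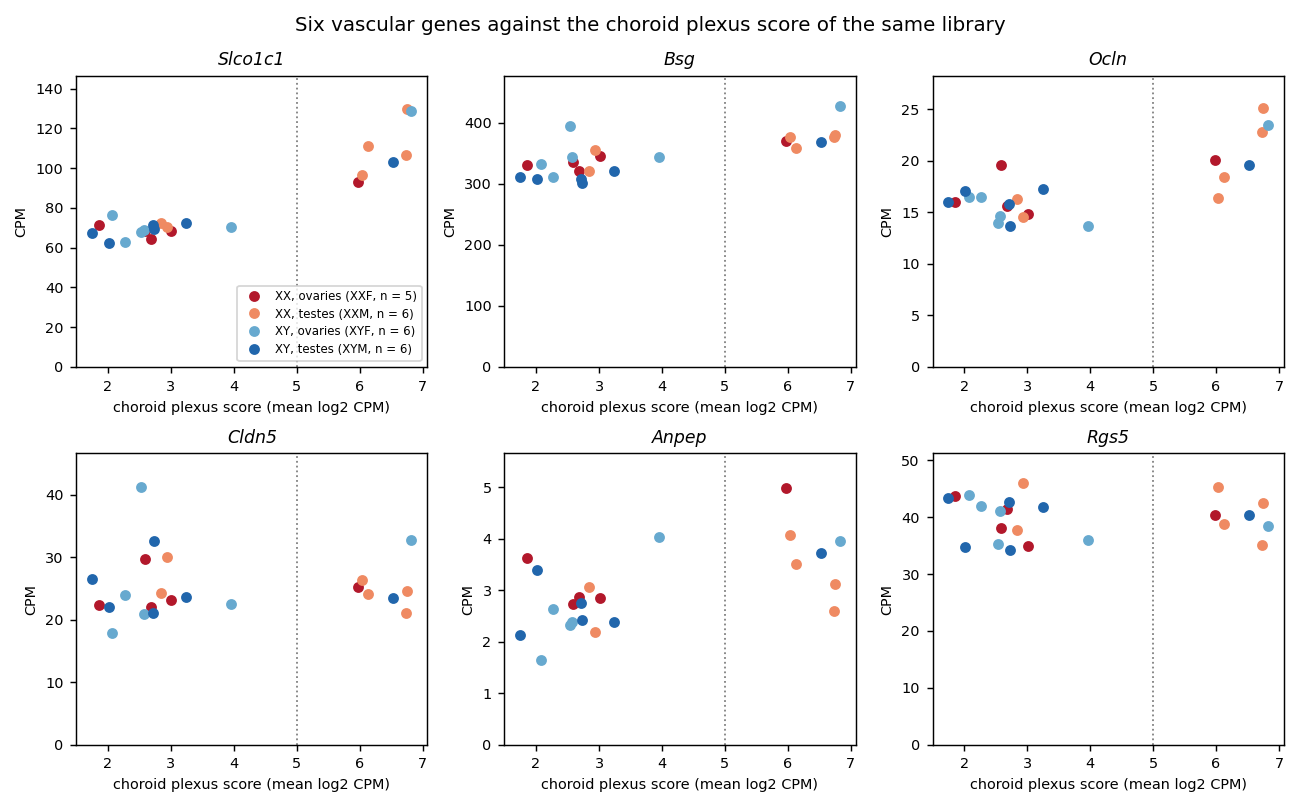
CPM of 6 genes (y axes from 0) against the choroid plexus score of the same library (x axis, mean log2 CPM of 9 genes; dotted line at 5), colored by group, one point per library. Slco1c1 is separated between the 7 libraries right of the line and the 16 left of it, and the other 5 genes overlap.

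Covariation within groups was measured on log2 CPM after each group's mean was removed, over 23 libraries and 33 members (Slco1c1, separated between choroid-rich and other libraries, was left out), which gives 528 pairs. The median r was 0.23 over all pairs, 0.21 between endothelial genes, 0.30 between mural genes and 0.23 across the classes. A permutation test within groups, adjusted over the 528 pairs, passed 18 pairs by Pearson's r, all positive, and 3 pairs by both r and Spearman's rho. Pdgfrb and Myh11 had r = 0.80 (permutation p = 0.00014, adjusted p = 0.0246) and rho = 0.78 (permutation p = 0.00014, adjusted p = 0.037). Without the 2 libraries farthest in Pdgfrb it was r = 0.81, and in the 16 libraries low in choroid plexus r = 0.76. Flt1 and Myh11 had r = 0.67 (permutation p = 0.00093, adjusted p = 0.0483) and rho = 0.75 (permutation p = 0.00024, adjusted p = 0.0422), then r = 0.54 without the 2 farthest libraries and r = 0.66 in the 16. The third was the pair of close copies, Ly6c1 and Ly6a, with r = 0.88 (permutation p = 0.00013, adjusted p = 0.0246) and rho = 0.86 (permutation p = 0.0001, adjusted p = 0.037), for which shared reads were not tested. It was r = 0.81 without the 2 farthest libraries and r = 0.83 in the 16.

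Anpep and Vtn followed the fibroblast and meninges score, the mean log2 CPM of 15 collagens and other markers of those cells. The same permutation test was adjusted over 33 members. Anpep had r = 0.88 (permutation p = 1e-05, adjusted p = 0.00033) and rho = 0.85 (permutation p = 1e-05, adjusted p = 0.00033). The value 1e-05 is the smallest these 100000 permutations can give. Without the 2 libraries farthest in the score it was r = 0.85, and in the 16 libraries low in choroid plexus r = 0.82. Vtn had r = 0.74 (permutation p = 0.00105, adjusted p = 0.0146) and rho = 0.70 (permutation p = 0.00173, adjusted p = 0.0285), then r = 0.73 without the 2 farthest and r = 0.66 in the 16. Emcn, Bsg, Tagln and Slco1a4 passed by r but not by rho. In the 16 libraries Bsg had r = 0.12 and Slco1a4 r = 0.18. Each point of these correlations takes both values from 1 library, with its depth and its tissue.

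Further vascular genes, from lists wider than the 34, also held 0 called genes in every one of the 4 comparisons. Of all genes, 0.283% were called for the sex chromosomes, 0.160% for the gonad, 0% for the interaction and 0.131% for XYM minus XXF. At shares this low, 0 calls in lists of this size say little about them. The other endothelial list had 40 genes, with a gonad median of -0.027 and 23 of 40 below 0. The smallest adjusted p there belonged to the amino acid carrier Slc7a5, at -0.20 ± 0.054 (SE, adjusted p = 0.139) on the log2 scale, chosen after its values were seen like all genes of this paragraph. Its means were 70.6 ± 4.15 in XXF, 62.5 ± 3.82 in XXM, 76 ± 7.55 in XYF and 65.3 ± 8.21 in XYM CPM. The arterial and venous list had 14 of 18 genes, and the gastrokine Gkn3, an arterial marker, had -0.73 ± 0.19 (SE, adjusted p = 0.127). Gkn3 averaged 3.86 ± 1.67 in XXF, 1.96 ± 0.618 in XXM, 3.29 ± 0.92 in XYF and 2.26 ± 0.535 in XYM CPM, with the 2 lower means in the groups with testes.

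The other mural list had 24 of 29 genes, with a gonad median of -0.0054 and 12 of 24 below 0. Tpm1, a tropomyosin found in many cell types, had a sex chromosome value of 0.14 ± 0.038 (SE, adjusted p = 0.236). Signalling ligands and partners had 29 of 32 genes, with 5 at an unadjusted p under 0.05 for the gonad, all below 0, against 13.6% of all genes. They included Gpr124, the Wnt7 co-receptor of brain endothelium, at -0.22 ± 0.063 (SE, adjusted p = 0.161), and Pdgfb, the endothelial ligand of Pdgfrb, at -0.18 ± 0.063 (SE, adjusted p = 0.24). Pdgfb averaged 31.3 ± 3.66 in XXF, 26.7 ± 2.42 in XXM, 27.5 ± 3.11 in XYF and 25.4 ± 2.73 in XYM CPM, highest in XXF. Basement membrane genes had 13 of 13, with 3 of 13 below 0 for the gonad, against 51.0% of all genes. Lama2, a laminin chain, had 0.22 ± 0.073 (SE, adjusted p = 0.209), and Col4a1, a type IV collagen, had a sex chromosome value of 0.23 ± 0.087 (SE, adjusted p = 0.562). None of these values passed adjustment over all genes. Marker lists of other cells also held 0 called genes in the 4 comparisons, for astrocytes (9 genes), microglia (8), oligodendrocytes (8), neurons (7 of 8), fibroblasts and meninges (15) and choroid plexus (9 of 12). At most 0.283% of all genes were called in any of them, so these counts, too, say little. The choroid plexus median was 0.75 for the gonad and -1.98 for the interaction on the log2 scale. Of the 7 rich libraries, XXM held 4 and each other group 1.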

How the data were processed

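Total RNA of 23 hippocampi was made into strand-specific, ribosomal RNA-depleted libraries from 500 ng and read in pairs of 100 bases, per the labels' protocols. The deposited table holds estimated counts per gene, which need not be whole, and log2 normalized values made by the authors. The table's rows had passed a filter by group, per the file headers: a raw value of 20 or more in 100% of the samples of any 1 group. The build mm10 and DESeq are named in the submitters' processing notes. Not given in the sources used here are the aligner, the counter and the use of strand. Groups came from sample titles. Replicate numbers follow accession order and pair nothing. Replicates differed by more than counting noise in each of 55 pairs (lowest chi-square per gene 4.30).

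Estimated counts were rounded. edgeR (version 4.0.16) quasi-likelihood tests in R (version 4.3.3), 2-sided, used trimmed mean of M-values scaling, 1 mean per group and 13766 genes, and the code was tested on simulated data. Standard errors were derived from each F statistic, and 95% intervals follow from them. CPM is the rounded count over the scaled total, and log2 CPM uses a prior count of 2. Exon lengths came from GENCODE for GRCm38, where every member's record overlapped the gene of its name. Listed symbols were matched through RefSeq gene identifiers, which renamed 9. Alternatives were DESeq2 (version 1.42.0) size factors and Wald test, limma (version 3.58.1) voom with quality weights, limma on the deposited log2 values, a filter of at least 1 CPM in at least 5 libraries (which removed none), the choroid plexus score as covariate, and leaving out each library. Leaving out the 7 libraries with a score above 5 was chosen after seeing the data. Fold changes are named for called members, for the 2 endothelial and 2 mural members with the smallest p per comparison, and for up to 5 called genes of each other list, of which 1 is not reported here. The members and lists were chosen with earlier results of these data known.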

Additional observations from a re-analysis of the deposited data

Results flagged for a closer look

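A library stood apart from the rest of its group, by Dixon's criterion for 1 outlying value, in 17 of 136 combinations of gene and group, 13 endothelial and 4 mural, and 16 of the 17 were high values. For independent, normally distributed values the criterion marks about 1 in 20. Genes of 1 library can move together, and the share over all genes was not counted. Whether 17 of 136 is more than other genes show is therefore not known.

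XXM replicate 5 accounted for 4: Ly6a at 28.8 CPM against 14.8 to 15.4 in the other libraries of the group, Ly6c1 at 33.5 CPM against 19.2 to 20.9, Vwf at 41 CPM against 11.7 to 14.8 and Pdgfrb at 30.4 CPM against 24.3 to 26.4. This library is also rich in choroid plexus genes. XYF replicate 5, with the highest choroid plexus score, accounted for 3: Slco1c1 at 129 CPM against 62.7 to 76.2, Ocln at 23.5 CPM against 13.6 to 16.5 and Tie1 at 12.7 CPM against 10.3 to 11.1. XYM replicate 1, the library of its group rich in choroid plexus, held Slco1c1 at 103 CPM against 62.5 to 72.3, Bsg at 369 CPM against 302 to 320.3 and Vtn at 65.7 CPM against 46 to 52.7. XXF replicate 1, likewise, held Slco1c1 at 93.2 CPM against 64.4 to 71.6 and Tagln at 12 CPM against 4.33 to 6.12. XYF replicate 4, with the Xist signal, held Vtn at 92.9 CPM against 48.3 to 61.7.

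The remaining values came from 4 libraries: Abcb1a in XYF replicate 2 at 46.5 CPM against 34 to 37.4, Mfsd2a in XXF replicate 5 at 22 CPM against 18.3 to 19.4, Egfl7 in XXM replicate 6 at 26.8 CPM against 19.9 to 22.3, and Esam in XXF replicate 4, the single low value, at 12.8 CPM against 15.5 to 16.4.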

How the results depend on the processing

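The count of called members stayed 0 in each of the 4 comparisons under every alternative, except that leaving out XXM replicate 5 gave 1 for the gonad (Ly6a), so its leave-one-out range was 0 to 1. Counts over all genes depended more on the method. For the sex chromosomes, 39 genes became 60 with DESeq2's Wald test, 68 with voom, 64 with the choroid plexus covariate and 24 without the 7 choroid-rich libraries. For the gonad, 22 became 98, 76 and 44 with the first 3 of these, and leaving out 1 library gave 17 to 85 (85 without XXF replicate 5, 49 without XYM replicate 1, 42 without XYF replicate 1, 34 without XYF replicate 5). For XYM minus XXF, 18 became 51 with DESeq2 and 123 with voom, and 12 to 36 without 1 library (36 without XYM replicate 6). The interaction gave 0 to 3 (3 without XYM replicate 1, 1 without XYF replicate 1). Leave-one-out counts for the sex chromosomes ran from 34 to 48. Log2 fold changes were followed for the members with the smallest p, those at an unadjusted p under 0.05 and the named called genes. None of these reversed its sign. All 918 group means stayed within 1 SD. For leaving out 1 library this was fixed in advance, since 1 of 5 or 6 libraries cannot move its group mean by 1 SD. The uncalled genes named from the wider vascular lists, and the gonad values of Myh11 and Rgs5, were not followed. Irf7 lost its sex chromosome call in the 16 libraries low in choroid plexus (0.88, adjusted p of 0.327). In mural genes the medians themselves shifted with voom, from -0.098 to -0.026 for the gonad and from -0.15 to 0.046 for XYM minus XXF. The latter was -0.020 without XXF replicate 1 and -0.078 without the choroid-rich libraries. No paired analysis was possible because replicate numbers follow accession order and pair no animals. Higd1b had the lowest counts of any member, 17 to 55 a library.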
